A study of Mus musculus with 12 samples.

Results

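Membrane transport genes of the mouse brain were followed through experimental stroke: the solute carriers, ion channels and ATPases on the nCounter Glial Profiling Panel, in which barcoded probes for a fixed list of genes are hybridised to RNA and counted without amplification. The genes were chosen by symbol, as those that begin with Slc, Kcn, Scn, Cacn, Atp and a digit, or Abc and a letter from a to g. Slco2b1 falls under this rule by its first 3 letters. The rule left out Abca1, Abcb1a, Abcg2, Atp2a2, Atp2b2, Atp2b4, Slc8a1 and Kcnv1. This gave 51 genes of the 757 endogenous genes tested: 18 Slc, 6 Kcn, 2 Scn, 5 Cacn, 17 Atp and 3 Abc genes. RNA came from whole brains of 12 male C57BL/6 mice, each a separate sample, taken 3 days after surgery. One group held 4 CD73ko mice and another 4 CD73 floxed mice, both after tMCAO, a transient 50 min occlusion of the middle cerebral artery, which cuts and then restores blood flow to part of a hemisphere; the last held 4 CD73 floxed mice after sham surgery. CD73 is the cell surface enzyme that makes adenosine from AMP. The floxed mice carry a conditional CD73 allele, and the Cre driver, the deleted cell type and the ages of the mice are not given in the sources used here. The panel did not count Nt5e, the gene for CD73, so the knockout was not checked in these counts, and no CD73ko sham group was analysed here. Whole brain RNA holds occluded and unoccluded tissue together, so a lower count can come from fewer cells of a type or from less RNA per cell, and these cannot be told apart.

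Ion gradients across the plasma membrane are built by pumps that spend ATP and are spent by channels and by carriers that couple one solute to another. Neurons use them to fire action potentials and to set the chloride level that decides the effect of GABA, and glia use them to clear glutamate and potassium. When blood flow stops, ATP falls, the pumps slow and the gradients run down, which opens calcium channels and turns transmitter uptake around. The V-ATPase is a separate proton pump that acidifies lysosomes and synaptic vesicles, and the mitochondrial ATP synthase makes the ATP that the pumps use.

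Sequences upstream of transcription starts are given for the genes below that passed the test and that the RefSeq promoter table (assembly GRCm38.p6) lists with the palindromic E-box CACGTG, the core of sites bound by basic helix-loop-helix factors such as USF1 and TFEB. These are Slc12a5 and Atp5pb, and Atp6v1a, a V-ATPase subunit that did not pass with counts scaled by TMM (a trimmed mean of gene ratios between libraries), is set beside them because its window holds the longer palindrome TCACGTGA. The table had entries for 36 of the 51 genes. It had none for Abcc3, Atp6v1g1 and Kcnq3, which passed the test, so these were not searched. Within the 250 bases before the start, CACGTG was found on either strand in 6 of the 50 windows of these genes (12.0%), and in 6.02% of the 32851 windows of the whole table. The 6 windows belong to Atp5g3, Atp5pb, Atp6v1a, Kcnab1 and Slc12a5, and a gene with several listed starts has several windows. The longer TCACGTGA, which contains CACGTG, was found in 1 of the 50 windows, against 0.785% of all windows. The windows lie at chr2:164967738-164967987, plus strand for 1 of 2 listed starts of Slc12a5, at chr3:105959264-105959513, minus strand for Atp5pb, and at chr16:44139260-44139509, minus strand for Atp6v1a. They are written 5′ to 3′ in the direction of transcription, with CACGTG in capitals.
Slc12a5: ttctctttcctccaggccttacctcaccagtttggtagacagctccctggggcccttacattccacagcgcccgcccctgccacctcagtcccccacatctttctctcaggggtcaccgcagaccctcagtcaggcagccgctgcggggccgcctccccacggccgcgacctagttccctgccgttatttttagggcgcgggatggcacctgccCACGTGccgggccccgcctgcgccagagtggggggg
Atp5pb: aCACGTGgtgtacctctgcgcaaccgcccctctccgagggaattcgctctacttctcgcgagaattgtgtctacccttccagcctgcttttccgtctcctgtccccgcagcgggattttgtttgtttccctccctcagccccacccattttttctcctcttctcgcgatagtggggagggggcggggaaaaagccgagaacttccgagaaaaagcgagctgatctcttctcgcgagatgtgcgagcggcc
Atp6v1a: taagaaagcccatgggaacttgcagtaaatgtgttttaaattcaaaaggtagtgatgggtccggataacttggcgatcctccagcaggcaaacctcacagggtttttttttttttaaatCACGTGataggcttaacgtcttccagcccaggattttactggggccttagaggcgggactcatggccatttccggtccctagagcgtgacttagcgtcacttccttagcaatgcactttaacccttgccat
The motif starts 36 bases before the start of Slc12a5, 249 bases before that of Atp5pb and 131 bases before that of Atp6v1a. A match describes letters in these windows only, and no binding was measured.

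The total count over the 770 endogenous and housekeeping genes lay between 724655 and 848853 in 11 libraries, and was 293589 in flox sham replicate 4. For the 51 genes, that library had the lowest normalised count of the 4 shams in 28 and the highest in 17, and its mean absolute deviation from the other shams was 0.287 on the log2 scale, against 0.0909 to 0.184 for each other library within its group. Results for the 51 genes that rest on it are therefore given with and without it. The lists of cell type markers and of other neuronal and glial genes further below are given with all mice only. A level was called above background when it lay over 2 SD beyond the average of the 8 negative probes in 3 or more of a group's 4 mice. This held for 50 of the 51 genes, the exception being Slc10a6, a carrier of steroid sulfates. Levels of different genes were not set against each other, because probes differ in efficiency.

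After tMCAO most of the 51 genes stayed within a narrow range of their sham level, and a few moved. In CD73ko tMCAO mice, 5 of 51 genes (9.8%) passed an adjusted p of 0.05 against flox shams, against 22.7% of all endogenous genes: Abcc3, Atp6v1g1 and Atp5pb were higher (3 of 51, against 16.1% of all genes) and 2 genes, Kcnq3 among them, were lower (2 of 51, against 6.61% of all genes). In flox tMCAO mice, 6 of 51 genes (11.8%) passed against the same shams, against 22.1% of all genes: Abcc3 and Atp6v1g1 were higher (2 of 51, against 14.1%) and 4 genes, Slc12a5, Kcnq3 and Scn8a among them, were lower (4 of 51, against 7.93%). Both shares of calls lay below that of the panel, and both comparisons use the same 4 shams, so the genes they share are not separate support. Without flox sham replicate 4, 3 genes were higher and 8 lower in CD73ko tMCAO mice (17.2% and 13.1% of all genes), and 2 were higher and 9 lower in flox tMCAO mice (15.9% and 11.4% of all genes).

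The median log2 fold change of the 51 genes was -0.03 in CD73ko tMCAO mice and -0.05 in flox tMCAO mice against shams, beside 0.00 and -0.01 for all endogenous genes. Estimates were negative for 35 and 31 of the 51 genes, beside 373 and 391 of the 757 endogenous genes. The 95% interval of the fold change lay within 1.5-fold in either direction for 46 of the 51 genes in CD73ko tMCAO mice. In flox tMCAO mice it did so for 42. Larger changes of these genes lie outside their intervals. Of the 757 endogenous genes, the interval lay within 1.5-fold for 512 in CD73ko tMCAO mice and for 518 in flox tMCAO mice. All 4 mice lay on one side of all 4 shams for 6 genes in CD73ko tMCAO mice, against 26.4% of all genes, and for 7 genes in flox tMCAO mice, against 25.2% of all genes. The plot of fold changes by role shows the spread of the 51 estimates in both comparisons.

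**Figure D1:**
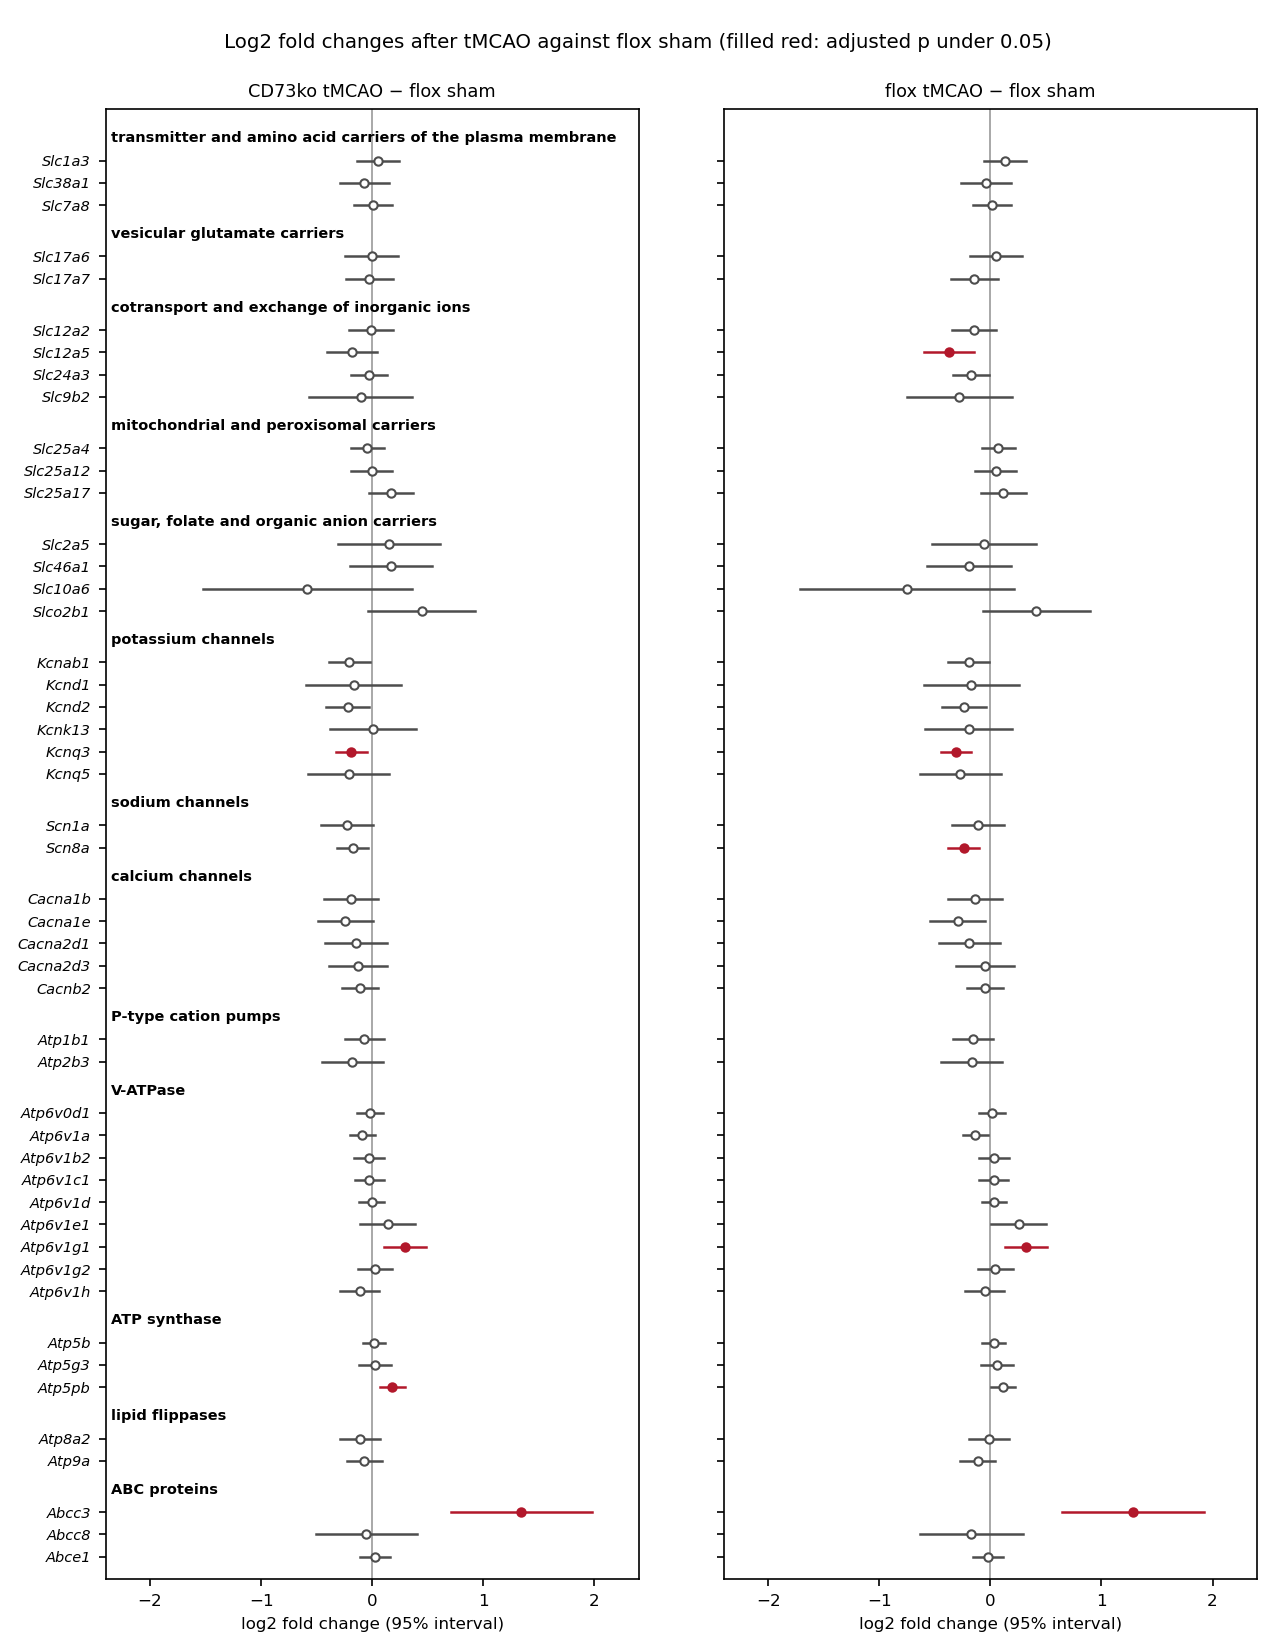
Log2 fold change of each of 48 of the 51 genes with its 95% interval, in CD73ko tMCAO mice (left) and in flox tMCAO mice (right), each against the same flox sham mice, grouped by role (n = 4 mice per group). Filled points passed an adjusted p of 0.05 and open points did not; Abcc3 stands far to the right in both panels, and the channel estimates lie mostly left of 0.

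Among the ABC proteins, Abcc3, which encodes the organic anion exporter MRP3, gave the largest estimate of the 51 genes in both comparisons. Abcc3 had 25.3, 18.9, 48.7 and 45.5 normalised counts in CD73ko tMCAO mice, 39.0, 31.2, 31.0 and 32.6 in flox tMCAO mice and 13.3, 14.9, 14.4 and 10.1 in flox sham mice. Every tMCAO mouse lay above every sham, but the CD73ko mice spread widely, with replicate 2 close to the shams. Its raw counts in the shams were 15, 16, 16 and 4, and only 2 of 4 shams were above background. With each sham set to the higher of its count and its background limit, Abcc3 was at least 2.11-fold higher in CD73ko tMCAO mice and at least 2.18-fold higher in flox tMCAO mice (log2 fold change 1.34, SE 0.30, adjusted p = 0.00401 and log2 fold change 1.28, SE 0.30, adjusted p = 0.00657). The call held under every alternative run, with adjusted p of 0.000552 to 0.0168 in CD73ko tMCAO mice and of 0.000536 to 0.0218 in flox tMCAO mice.

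The other ABC proteins did not pass. Abcc8, the sulfonylurea receptor subunit SUR1 of ATP-sensitive potassium channels, averaged 40.1 ± 9.02, 37.3 ± 9.15 and 40.5 ± 7.85 normalised counts in CD73ko tMCAO, flox tMCAO and flox sham mice (SD, n = 4 each). Its log2 fold change against shams was -0.05 in CD73ko tMCAO mice (95% interval -0.51 to 0.40) and -0.17 in flox tMCAO mice (95% interval -0.63 to 0.29). Abce1, which carries an ABC domain but recycles ribosomes and transports nothing, had narrow intervals around log2 fold changes of 0.02 (95% interval -0.11 to 0.16) and -0.02 (95% interval -0.16 to 0.11).

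**Figure D2:**
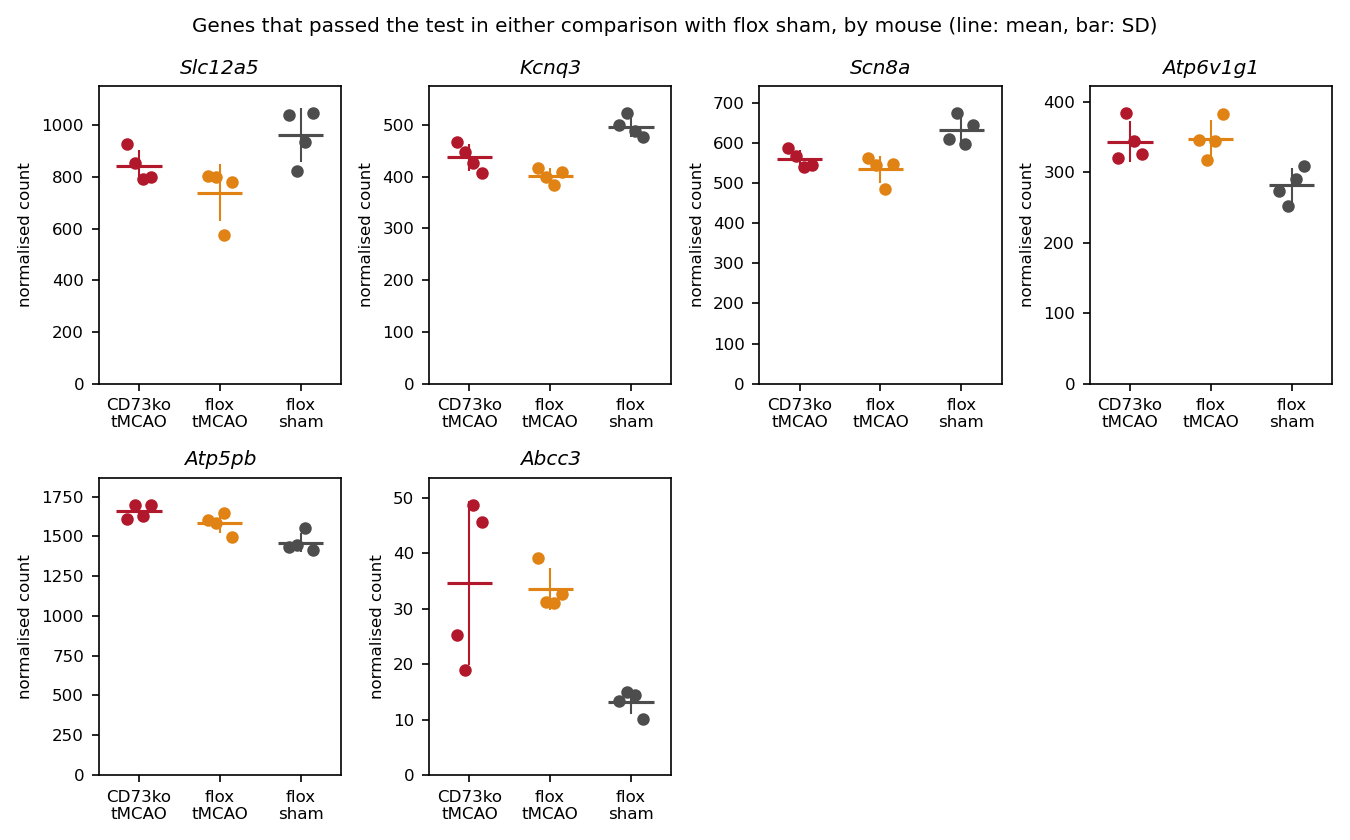
Normalised counts of each mouse for Slc12a5, Kcnq3, Scn8a, Atp6v1g1, Atp5pb and Abcc3, which passed an adjusted p of 0.05 in either comparison with flox sham, with CD73ko tMCAO left, flox tMCAO in the middle and flox sham right; lines and bars give the mean and SD of 4 mice. Abcc3, Atp6v1g1, Kcnq3 and Scn8a show all tMCAO mice on 1 side of all shams, and the 2 tMCAO groups overlap in every panel.

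Of 9 V-ATPase subunits, 1 rose. Atp6v1g1 encodes the widely expressed G subunit of the peripheral stalk. Atp6v1g1 had 321, 384, 344 and 326 normalised counts in CD73ko tMCAO mice, 346, 318, 345 and 383 in flox tMCAO mice and 274, 252, 290.5 and 309 in flox sham mice. All 8 tMCAO mice lay above all shams, the gap to the highest sham being small in both groups. It rose in CD73ko tMCAO mice (log2 fold change 0.30, SE 0.09, adjusted p = 0.0251) and in flox tMCAO mice (log2 fold change 0.32, SE 0.09, adjusted p = 0.0189). The call in CD73ko tMCAO mice was lost with CD73ko tMCAO replicate 2 left out (adjusted p = 0.09), with CD73ko tMCAO replicate 3 left out (adjusted p = 0.0605), with flox sham replicate 1 left out (adjusted p = 0.067), with flox sham replicate 2 left out (adjusted p = 0.113), with flox sham replicate 3 left out (adjusted p = 0.056), with counts scaled on the median of the endogenous genes (adjusted p = 0.0691) and with counts scaled on the housekeeping genes (adjusted p = 0.0876), over a range of 0.0109 to 0.113. In flox tMCAO mice it was lost with flox tMCAO replicate 4 left out (adjusted p = 0.0625), with flox sham replicate 1 left out (adjusted p = 0.0527), with flox sham replicate 2 left out (adjusted p = 0.0695) and with counts scaled on the housekeeping genes (adjusted p = 0.0514), over a range of 0.00797 to 0.0695.

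The other 8 V-ATPase subunits, Atp6v0d1 of the membrane sector and Atp6v1a, Atp6v1b2, Atp6v1c1, Atp6v1d, Atp6v1e1, Atp6v1g2 and Atp6v1h of the cytosolic sector, did not pass in either comparison under TMM scaling. Their log2 fold changes ran from -0.11 to 0.14 in CD73ko tMCAO mice and from -0.14 to 0.26 in flox tMCAO mice. Atp6v1g2, the neuronal G subunit, gave 0.02 (95% interval -0.13 to 0.18) and 0.05 (95% interval -0.11 to 0.20). The raw count ratio of Atp6v1g1 to Atp6v1g2 within a library, which no scaling affects, ran from 0.219 to 0.298 in CD73ko tMCAO mice, 0.242 to 0.268 in flox tMCAO mice and 0.192 to 0.265 in flox shams. These ranges overlap, the top of the sham range being set by replicate 4. Atp6v1e1, the E subunit of the stalk, gave the most positive estimate among these 8, 0.26 in flox tMCAO mice (SE 0.12, adjusted p = 0.136). It was 0.14 without flox sham replicate 4 (adjusted p = 0.213), and passed with flox sham replicate 3 left out (adjusted p = 0.0496). Atp6v1a, a catalytic subunit, gave -0.09 in CD73ko tMCAO mice (adjusted p = 0.258) and -0.14 in flox tMCAO mice (adjusted p = 0.085). It was called lower in CD73ko tMCAO mice on median scaling (adjusted p = 0.0397), and in flox tMCAO mice on median scaling (adjusted p = 0.0246), on housekeeping scaling (adjusted p = 0.0323) and with DESeq2 (adjusted p = 0.0442).

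Of 3 ATP synthase subunits, Atp5pb, subunit b of the peripheral stalk, rose in CD73ko tMCAO mice. Atp5pb had 1608, 1700.2, 1626 and 1701 normalised counts in CD73ko tMCAO mice, 1604, 1588, 1648 and 1496 in flox tMCAO mice and 1434, 1443, 1552 and 1415 in flox sham mice. All CD73ko tMCAO mice lay above all shams, while flox tMCAO replicate 4 lay below the highest sham. The rise in CD73ko tMCAO mice was small (log2 fold change 0.18, SE 0.05, adjusted p = 0.0209), and the estimate in flox tMCAO mice did not pass (log2 fold change 0.11, SE 0.05, adjusted p = 0.131). The difference between these groups was tested directly and did not pass either (log2 fold change 0.07, SE 0.05, adjusted p = 0.835). The call was lost with CD73ko tMCAO replicate 2 left out (adjusted p = 0.068), with CD73ko tMCAO replicate 4 left out (adjusted p = 0.0663), with flox sham replicate 1 left out (adjusted p = 0.0577), with flox sham replicate 2 left out (adjusted p = 0.0883), with counts scaled on the median of the endogenous genes (adjusted p = 0.144) and with counts scaled on the housekeeping genes (adjusted p = 0.315), over a range of 0.0139 to 0.315. Atp5b, the catalytic beta subunit, and Atp5g3, 1 of the genes for the membrane ring, had log2 fold changes of 0.01 and 0.03 in CD73ko tMCAO mice and of 0.03 and 0.06 in flox tMCAO mice, none of them called.

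Of the P-type cation pumps, Atp1b1, a beta subunit that carries its pump to the membrane, averaged 4475 ± 169, 4221 ± 240.2 and 4705 ± 659 normalised counts in CD73ko tMCAO, flox tMCAO and flox sham mice (SD, n = 4 each) and did not pass. Atp2b3, a calcium pump of the neuronal plasma membrane, did not pass with all mice, at -0.18 in CD73ko tMCAO mice (95% interval -0.46 to 0.10) and -0.17 in flox tMCAO mice (95% interval -0.45 to 0.11). With flox sham replicate 4 left out, Atp2b3 was lower in CD73ko tMCAO mice (log2 fold change -0.30, SE 0.10, adjusted p = 0.0393).

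The 2 lipid flippases, which move phospholipids between the leaflets of a membrane, did not pass with all mice. Atp9a had 1532, 1404, 1382 and 1486 normalised counts in CD73ko tMCAO mice, 1426, 1337, 1544 and 1327 in flox tMCAO mice and 1599.9, 1614, 1564 and 1288 in flox sham mice. The groups overlap, because flox sham replicate 4 lay below all tMCAO mice while the other shams lay above them all. Its log2 fold change was -0.07 in CD73ko tMCAO mice (SE 0.07, adjusted p = 0.541) and -0.11 in flox tMCAO mice (SE 0.07, adjusted p = 0.319). Without flox sham replicate 4, the lowest sham, Atp9a was lower in flox tMCAO mice (log2 fold change -0.17, SE 0.06, adjusted p = 0.0488). Atp8a2 gave -0.11 in CD73ko tMCAO mice (95% interval -0.29 to 0.07) and -0.01 in flox tMCAO mice (95% interval -0.19 to 0.16).

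Among 6 potassium channel genes, Kcnq3 fell in both tMCAO groups. Kcnq3 and Kcnq5 encode subunits of the M-current, a slow potassium current that restrains repetitive firing of neurons. Kcnq3 had 468, 448, 427 and 408 normalised counts in CD73ko tMCAO mice, 416, 399, 383 and 409.9 in flox tMCAO mice and 499, 523, 489 and 477 in flox sham mice. All 8 tMCAO mice lay below all shams, with CD73ko tMCAO replicate 1 nearest to them. Its log2 fold change was -0.19 in CD73ko tMCAO mice (SE 0.06, adjusted p = 0.0488) and -0.31 in flox tMCAO mice (SE 0.06, adjusted p = 0.00304). The fall in flox tMCAO mice passed under every alternative run, with adjusted p from 0.000171 to 0.0127. The call in CD73ko tMCAO mice was lost with CD73ko tMCAO replicate 2 left out (adjusted p = 0.0833), with CD73ko tMCAO replicate 3 left out (adjusted p = 0.127), with CD73ko tMCAO replicate 4 left out (adjusted p = 0.149), with flox sham replicate 1 left out (adjusted p = 0.095), with flox sham replicate 2 left out (adjusted p = 0.0832), with limma on log2(scaled count + 1) (adjusted p = 0.0553), with limma on log2(scaled count + 10) (adjusted p = 0.0576) and with only the 2 groups compared fitted (adjusted p = 0.0648), over a range of 0.00702 to 0.149. The direct test between the tMCAO groups did not pass (log2 fold change 0.12, SE 0.06, adjusted p = 0.786).

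The other 5 potassium channel genes did not pass with all mice under TMM scaling, and Kcnd2 and Kcnab1 among them passed under other settings. All 6 estimates were negative in flox tMCAO mice, from -0.31 to -0.17, and stayed so under each scaling tried. In CD73ko tMCAO mice they ran from -0.22 to 0.01, and the positive one, of Kcnk13, turned negative when scaled on the median, on the housekeeping genes or with DESeq2's size factors. In that order, these scalings shifted all genes by a median log2 fold change of -0.043, -0.072 and -0.0053 in flox tMCAO mice. In CD73ko tMCAO mice the shifts were -0.068, -0.092 and -0.024. Negative estimates could therefore hardly turn positive under these scalings. Kcnk13 encodes THIK-1, the background potassium channel of microglia. Kcnd2 and Kcnd1 encode Kv4 channels of the A-type current; Kcnd2 averaged 242 ± 20.8, 239 ± 13.6 and 279.6 ± 27.8 normalised counts in CD73ko tMCAO, flox tMCAO and flox sham mice (SD, n = 4 each). Without flox sham replicate 4, Kcnd2 was lower in CD73ko tMCAO mice (log2 fold change -0.28, SE 0.09, adjusted p = 0.0316) and in flox tMCAO mice (log2 fold change -0.28, SE 0.09, adjusted p = 0.0377). With that sham kept, it was called lower in CD73ko tMCAO mice on median scaling (adjusted p = 0.0214), on housekeeping scaling (adjusted p = 0.0445), with DESeq2 (adjusted p = 0.0443) and with CD73ko tMCAO replicate 1 left out (adjusted p = 0.0212), and in flox tMCAO mice on median scaling (adjusted p = 0.0281). Kcnab1, an accessory beta subunit of Kv channels, gave -0.21 (95% interval -0.39 to -0.02) and -0.19 (95% interval -0.38 to -0.01) in the same order of comparisons. Neither value passed with all mice (adjusted p = 0.102 and 0.129). Both were smaller without flox sham replicate 4, the highest sham, in CD73ko tMCAO mice (log2 fold change -0.13, SE 0.06, adjusted p = 0.116) and in flox tMCAO mice (log2 fold change -0.10, SE 0.06, adjusted p = 0.269). With that sham kept, Kcnab1 was called lower in CD73ko tMCAO mice on median scaling (adjusted p = 0.0462), on housekeeping scaling (adjusted p = 0.0121) and with flox sham replicate 1 left out (adjusted p = 0.0386), and in flox tMCAO mice on housekeeping scaling (adjusted p = 0.0269). The raw count ratio of Kcnq3 to Kcnq5 ran from 8.28 to 12.5 in CD73ko tMCAO mice, 8.59 to 11.7 in flox tMCAO mice and 7.97 to 13.4 in flox shams. These ranges overlap, the top of the sham range being set by replicate 4.

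Of the 2 sodium channel genes, Scn8a, which encodes Nav1.6, the main channel of the axon initial segment, fell in flox tMCAO mice. Scn8a had 588, 568, 541 and 546 normalised counts in CD73ko tMCAO mice, 562, 546, 486 and 548 in flox tMCAO mice and 612, 676, 599 and 647 in flox sham mice. All 8 tMCAO mice lay below all shams, and CD73ko tMCAO replicate 1 was the nearest to them. The fold change passed in flox tMCAO mice (log2 fold change -0.24, SE 0.07, adjusted p = 0.0167) and not in CD73ko tMCAO mice (log2 fold change -0.17, SE 0.07, adjusted p = 0.0669). The call in flox tMCAO mice did not hold with flox sham replicate 2 left out (adjusted p = 0.0565), over a range of 0.0056 to 0.0565. Between the tMCAO groups the log2 fold change was 0.07 (95% interval -0.07 to 0.20), so the groups were not shown to differ. Scn8a was lower in CD73ko tMCAO mice as well without flox sham replicate 4 (log2 fold change -0.18, SE 0.06, adjusted p = 0.0449). With that sham kept it was also called there on median scaling (adjusted p = 0.0117), on housekeeping scaling (adjusted p = 0.0221), with DESeq2's size factors (adjusted p = 0.0391), with DESeq2 (adjusted p = 0.0324), over genes above background (adjusted p = 0.0443), with CD73ko tMCAO replicate 1 left out (adjusted p = 0.028) and with flox sham replicate 3 left out (adjusted p = 0.0381). Scn1a, which encodes Nav1.1 of inhibitory neurons, averaged 977 ± 60.1, 1055 ± 100.0 and 1130.3 ± 209 normalised counts (SD, n = 4 each) in the same order of groups, and its sham SD was the widest of the 3. Without flox sham replicate 4, Scn1a was lower in CD73ko tMCAO mice (log2 fold change -0.35, SE 0.08, adjusted p = 0.00345) and in flox tMCAO mice (log2 fold change -0.22, SE 0.08, adjusted p = 0.0444). The raw count ratio of Scn8a to Scn1a ran from 0.551 to 0.606 in CD73ko tMCAO mice, 0.409 to 0.574 in flox tMCAO mice and 0.490 to 0.785 in flox shams. The top of the sham range was set by replicate 4. The other shams, at 0.490 to 0.529, lay below all CD73ko tMCAO mice and within the range of the flox tMCAO mice.

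None of the 5 calcium channel genes passed with all mice under TMM scaling, and all 5 estimates were negative in both comparisons. They ran from -0.24 to -0.11 in CD73ko tMCAO mice and from -0.29 to -0.05 in flox tMCAO mice. Their signs stayed negative under the other scalings, which moved the whole panel down and so could hardly turn them. Cacna1e had 382, 298, 303 and 327 normalised counts in CD73ko tMCAO mice, 305, 334, 304 and 323 in flox tMCAO mice and 401, 368, 318 and 492 in flox sham mice. The groups overlap, and the shams spread widely, with replicate 3 among the tMCAO mice and replicate 4 highest. Cacna1e encodes the pore of the R-type channel, and its log2 fold change was -0.24 in CD73ko tMCAO mice (SE 0.12, adjusted p = 0.148) and -0.29 in flox tMCAO mice (SE 0.12, adjusted p = 0.0854). The value in CD73ko tMCAO mice passed on housekeeping scaling (adjusted p = 0.0445), with CD73ko tMCAO replicate 1 left out (adjusted p = 0.0369) and with flox sham replicate 3 left out (adjusted p = 0.0394). In flox tMCAO mice it passed on housekeeping scaling (adjusted p = 0.0329) and with flox sham replicate 3 left out (adjusted p = 0.0288), over a range of 0.0288 to 0.236. Without flox sham replicate 4 it was -0.16 in CD73ko tMCAO mice (adjusted p = 0.247) and -0.19 in flox tMCAO mice (adjusted p = 0.183).

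Cacna2d1, an alpha 2 delta subunit that carries calcium channels to the membrane and binds gabapentin, depended on a single sham. Cacna2d1 had 459, 435, 393 and 431 normalised counts in CD73ko tMCAO mice, 400.1, 412, 405 and 453 in flox tMCAO mice and 531, 514, 519 and 294 in flox sham mice. Flox sham replicate 4 lay far below the other shams, which were all above the 8 tMCAO mice. With all mice the gene did not pass (log2 fold change -0.15, SE 0.13, adjusted p = 0.46 in CD73ko tMCAO mice and log2 fold change -0.19, SE 0.13, adjusted p = 0.346 in flox tMCAO mice). Without that sham it was lower in CD73ko tMCAO mice (log2 fold change -0.30, SE 0.07, adjusted p = 0.004) and in flox tMCAO mice (log2 fold change -0.32, SE 0.07, adjusted p = 0.00323). Cacna1b, the N-type pore of presynaptic terminals, Cacna2d3 and the beta subunit Cacnb2 did not pass either way.

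Among 5 carriers of inorganic ions, Slc12a5 fell in flox tMCAO mice. It encodes KCC2, the neuronal carrier that extrudes chloride and keeps GABA inhibitory, while Slc12a2 encodes NKCC1, which brings chloride in. Slc12a5 had 926, 854, 792 and 801 normalised counts in CD73ko tMCAO mice, 803, 798, 577 and 781 in flox tMCAO mice and 1039, 822, 936 and 1047 in flox sham mice. All flox tMCAO mice lay below all shams, with replicate 3 well below the rest, while 2 CD73ko tMCAO mice lay above the lowest sham. The fall in flox tMCAO mice passed (log2 fold change -0.37, SE 0.11, adjusted p = 0.0202), and the estimate in CD73ko tMCAO mice did not (log2 fold change -0.18, SE 0.10, adjusted p = 0.243). The call did not hold with flox sham replicate 1 left out (adjusted p = 0.0661), over a range of 0.00606 to 0.0661. Between the tMCAO groups the log2 fold change was 0.19 (95% interval -0.03 to 0.41). Slc12a2 averaged 587 ± 39.4, 534 ± 64.6 and 598 ± 61.3 normalised counts in CD73ko tMCAO, flox tMCAO and flox sham mice (SD, n = 4 each), and did not pass. The raw count ratio of Slc12a5 to Slc12a2 ran from 1.26 to 1.73 in CD73ko tMCAO mice, 1.27 to 1.56 in flox tMCAO mice and 1.5 to 1.78 in flox shams, with overlapping ranges.

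Slc24a3 and Slc9b2 did not pass under TMM scaling. Slc24a3, the sodium and potassium dependent calcium exchanger NCKX3, gave -0.03 in CD73ko tMCAO mice (95% interval -0.19 to 0.13) and -0.17 in flox tMCAO mice (95% interval -0.34 to -0.01), and was called lower in flox tMCAO mice on median scaling (adjusted p = 0.0348). Slc9b2, a sodium-proton exchanger counted near 23.4 normalised counts in shams, had intervals too wide to place, -0.57 to 0.36 and -0.75 to 0.19 in the same order.

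Slc1a3, Slc38a1 and Slc7a8, carriers of transmitters and amino acids in the plasma membrane, stayed near their sham level. Slc1a3 had 2761, 3039, 2803 and 3159.6 normalised counts in CD73ko tMCAO mice, 2935, 3037, 3513 and 2942 in flox tMCAO mice and 2875, 3123, 3015 and 2295 in flox sham mice. The groups overlap, the lowest and highest values of Slc1a3 lying in flox sham replicate 4 and flox tMCAO replicate 3. Slc1a3 encodes GLAST, by which astrocytes take up glutamate, and its log2 fold change was 0.05 in CD73ko tMCAO mice (95% interval -0.14 to 0.24) and 0.13 in flox tMCAO mice (95% interval -0.06 to 0.32). Slc38a1, a glutamine carrier, and Slc7a8, the neutral amino acid carrier LAT2, had estimates from -0.07 to 0.01 in CD73ko tMCAO mice and from -0.04 to 0.01 in flox tMCAO mice, neither of them called with all mice. The intervals of these 3 carriers lay within 1.5-fold in either direction in both comparisons. Slc38a1 was, without flox sham replicate 4, lower in CD73ko tMCAO mice (log2 fold change -0.20, SE 0.05, adjusted p = 0.0133).

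The vesicular glutamate carriers, which load synaptic vesicles, did not pass with all mice. Slc17a7 had 2007, 1725, 1503 and 1714 normalised counts in CD73ko tMCAO mice, 1589.6, 1499, 1582 and 1732 in flox tMCAO mice and 1832, 1950.4, 1853 and 1402 in flox sham mice. The groups overlap, with flox sham replicate 4 lowest of all and CD73ko tMCAO replicate 1 highest. Slc17a7, the VGLUT1 of cortical and hippocampal neurons, gave -0.03 in CD73ko tMCAO mice (95% interval -0.24 to 0.19) and -0.14 in flox tMCAO mice (95% interval -0.36 to 0.07). It was lower in flox tMCAO mice when flox sham replicate 4 was left out (log2 fold change -0.23, SE 0.08, adjusted p = 0.0488). Slc17a6, the VGLUT2 of thalamus and brainstem, gave -0.0049 (95% interval -0.24 to 0.23) and 0.05 (95% interval -0.19 to 0.29). The raw count ratio of Slc17a7 to Slc17a6 ran from 5.49 to 6.76 in CD73ko tMCAO mice, 5.03 to 6.24 in flox tMCAO mice and 6.15 to 6.74 in flox shams.

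No mitochondrial or peroxisomal carrier passed. Slc25a17 had 258, 266, 236 and 249.8 normalised counts in CD73ko tMCAO mice, 226, 236, 268 and 245 in flox tMCAO mice and 200.3, 209.8, 253 and 241 in flox sham mice. The groups overlap, with flox sham replicates 1 and 2 lowest. Slc25a17, a carrier of the peroxisomal membrane, gave 0.17 in CD73ko tMCAO mice (95% interval -0.03 to 0.37) and 0.12 in flox tMCAO mice (95% interval -0.08 to 0.32). Slc25a4, the ADP/ATP carrier ANT1, gave -0.04 and 0.07, and Slc25a12, the aspartate and glutamate carrier, gave -0.0033 and 0.05, in CD73ko tMCAO mice and in flox tMCAO mice.

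The carriers of sugar, folate, steroid sulfates and organic anions had low counts and did not pass. Slc46a1 had 49.7, 47.4, 65.6 and 57.6 normalised counts in CD73ko tMCAO mice, 43.5, 40.96, 48.5 and 38.9 in flox tMCAO mice and 55.0, 58.7, 37.0 and 43.1 in flox sham mice. The groups overlap, with CD73ko tMCAO replicate 3 highest and flox sham replicate 3 lowest. Slc46a1 is the proton-coupled folate carrier, and its log2 fold change was 0.17 in CD73ko tMCAO mice (95% interval -0.20 to 0.54) and -0.19 in flox tMCAO mice (95% interval -0.57 to 0.19). Slco2b1, an organic anion carrier of vessels and microglia, averaged 32.8 ± 8.74, 32.2 ± 6.07 and 24.0 ± 2.81 normalised counts in CD73ko tMCAO, flox tMCAO and flox sham mice (SD, n = 4 each; adjusted p = 0.177 and 0.225 against shams). Slc2a5, the fructose carrier GLUT5 of microglia, gave 0.15 (95% interval -0.31 to 0.61) and -0.06 (95% interval -0.53 to 0.41). Slc10a6 was not above background in at least 3 mice of any group, so its estimates of -0.58 and -0.75 are not read as changes.

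**Figure D3:**
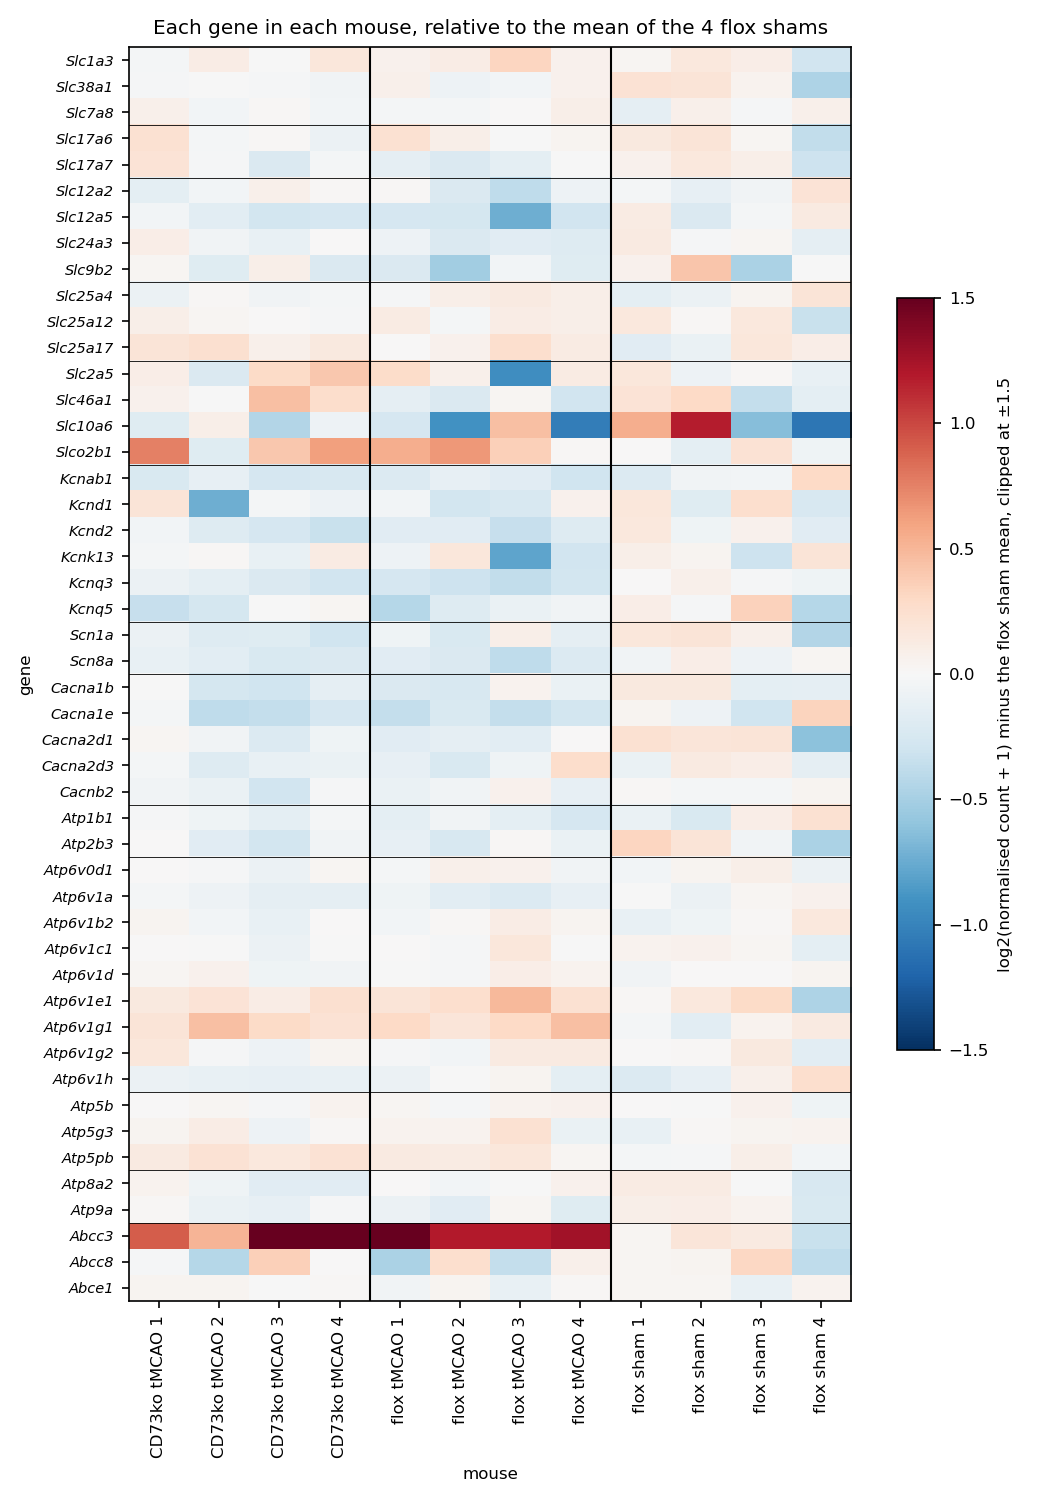
Log2 of the normalised count plus 1 minus the flox sham mean, for each of 48 of the 51 genes (rows, by role) and each of the 12 mice (columns), with CD73ko tMCAO left, flox tMCAO in the middle and flox sham right. The channel genes are mostly below the sham mean in tMCAO mice, Abcc3 is above it in all 8, and flox sham replicate 4 stands apart from the other shams in several rows.

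Several other genes of neuronal transmission fell, and none rose. Of 18 receptor and transmitter synthesis genes measured from a list of 34, 9 fell and 0 rose in CD73ko tMCAO mice, and 8 fell and 0 rose in flox tMCAO mice. Of all endogenous genes, 6.61% fell and 16.1% rose in CD73ko tMCAO mice, and 7.93% fell and 14.1% rose in flox tMCAO mice. Some genes of this list are also neuronal markers below, so the 2 sets of counts are not separate. Grin2a, the GluN2A subunit of NMDA receptors, fell in CD73ko tMCAO mice (log2 fold change -0.28, SE 0.09, adjusted p = 0.0402) and in flox tMCAO mice (log2 fold change -0.52, SE 0.09, adjusted p = 0.00097). Drd1, a dopamine receptor of striatal projection neurons, fell in CD73ko tMCAO mice (log2 fold change -0.30, SE 0.08, adjusted p = 0.0162) and in flox tMCAO mice (log2 fold change -0.37, SE 0.08, adjusted p = 0.00479). Of 2 glial water and gap junction channels measured from a list of 5, Aqp4, the water channel of astrocyte endfeet, rose in CD73ko tMCAO mice (log2 fold change 0.46, SE 0.11, adjusted p = 0.00794) and did not pass in flox tMCAO mice (log2 fold change 0.19, SE 0.11, adjusted p = 0.267). The direct test of Aqp4 between the tMCAO groups did not pass (log2 fold change 0.27, SE 0.11, adjusted p = 0.747). Aqp4 also counts among the astrocyte markers below. Gjb1, a connexin of oligodendrocytes, passed in neither comparison with shams.

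Markers of cell types moved in the same samples. Of all endogenous genes, 16.1% were higher and 6.61% lower in CD73ko tMCAO mice, and 14.1% and 7.93% in flox tMCAO mice. Of 9 neuronal markers measured from 15, 3 fell and 0 rose in CD73ko tMCAO mice, and 5 fell and 0 rose in flox tMCAO mice. Their summed normalised counts were 22725 to 25101 in CD73ko tMCAO mice, 21916 to 24016 in flox tMCAO mice and 25029 to 27807 in flox shams. The lowest of these sham sums was that of flox sham replicate 4, and it lay below the highest CD73ko tMCAO sum. Of 9 microglial markers, 7 rose in CD73ko tMCAO mice and 6 in flox tMCAO mice, with sums of 4249 to 5983 in CD73ko tMCAO mice, 3277 to 5626 in flox tMCAO mice and 2086 to 2449 in flox shams. Of 5 astrocyte markers measured from 8, 2 rose in CD73ko tMCAO mice and 1 in flox tMCAO mice. Their sums were 5546 to 7579.5 in CD73ko tMCAO mice, 5746 to 7132 in flox tMCAO mice and 2965 to 3729.9 in flox shams. The highest of these sham sums was that of flox sham replicate 4. Most of the rise in the astrocyte sum lay in 1 marker. The largest log2 fold change was 2.20 in CD73ko tMCAO mice and 2.05 in flox tMCAO mice, against medians of 0.20 and 0.24. Of 2 monocyte and neutrophil markers measured from 7, 1 rose in each comparison. Their sums were 167 to 662 in CD73ko tMCAO mice, 256 to 434 in flox tMCAO mice and 61.5 to 91.3 in flox shams. The other marker did not pass, with log2 fold changes of 0.31 in CD73ko tMCAO mice and 0.01 in flox tMCAO mice. Of 6 oligodendrocyte markers measured from 9, 1 rose in each comparison, with sums of 20259.7 to 22378 in CD73ko tMCAO mice, 13214 to 22217 in flox tMCAO mice and 17426 to 18938 in flox shams. Of 3 oligodendrocyte progenitor markers measured from 4, 1 rose in CD73ko tMCAO mice and 0 in flox tMCAO mice, with sums of 437 to 542 in CD73ko tMCAO mice, 406 to 463 in flox tMCAO mice and 358 to 431 in flox shams. Of 5 endothelial markers measured from 8, 0 rose in CD73ko tMCAO mice and 3 in flox tMCAO mice, with sums of 752 to 1025 in CD73ko tMCAO mice, 788 to 1063 in flox tMCAO mice and 696 to 824 in flox shams. Every measured marker was above background, and none of the 4 mural markers was measured. No measured marker passed in the direct test between the tMCAO groups. The part of these shifts in the lower channel and carrier counts and in the higher Abcc3 and Atp6v1g1 counts was not tested.

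**Figure D4:**
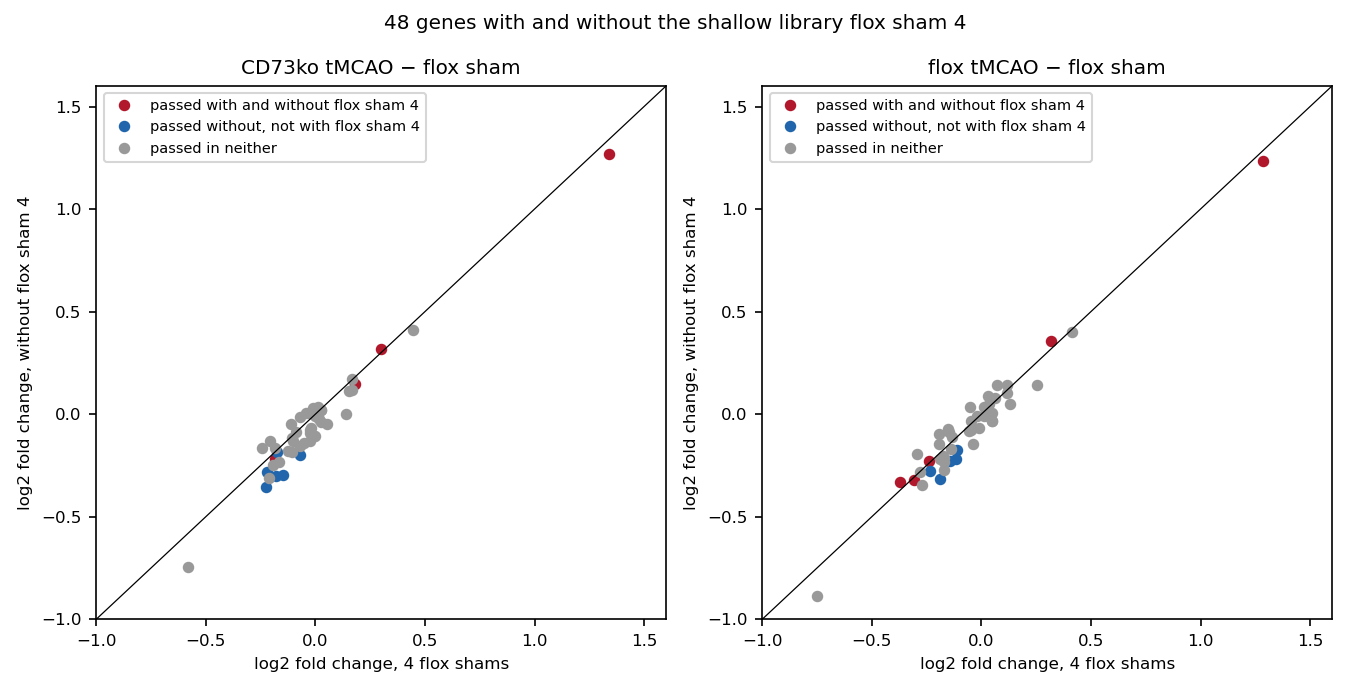
Log2 fold changes of 48 of the 51 genes with all mice (x axis) and without flox sham replicate 4 (y axis), for CD73ko tMCAO (left) and flox tMCAO (right) against flox sham; colours mark genes that passed an adjusted p of 0.05 with all mice, those that did so without that sham and not with all mice, and those that passed in neither fit. The genes gained without it are channels, a pump, a flippase and carriers, and lie below 0 in both fits.

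The genes that did not pass with all mice under TMM scaling and passed without flox sham replicate 4 were all lower. In CD73ko tMCAO mice they were Atp2b3, Cacna2d1, Kcnd2, Scn1a, Scn8a and Slc38a1, and in flox tMCAO mice Atp9a, Cacna2d1, Kcnd2, Scn1a and Slc17a7. No call made with all mice was lost when this library alone was left out. Leaving out flox tMCAO replicate 3 as well, the other library that deviated most within its group, left 3 genes higher and 9 lower in CD73ko tMCAO mice (21.3% and 14% of all genes) and 2 higher and 8 lower in flox tMCAO mice (16.2% and 10.8% of all genes). With all mice and scaling on the housekeeping genes, 1 gene was higher and 6 were lower in CD73ko tMCAO mice (13.3% and 15.5% of all genes), and 1 was higher and 7 lower in flox tMCAO mice (11.8% and 13.1% of all genes).

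Between the genotypes after tMCAO, none of the 51 genes passed (0%), as was so for the 757 endogenous genes (0%). No member of the set passed an unadjusted p of 0.05 in edgeR's quasi-likelihood test, and 47 of all genes did; DESeq2 and limma also called 0 genes. The groups overlapped for all 51 genes, while they did not overlap for 3.83% of all genes. The 3 smallest p-values belonged to Slc46a1 (log2 fold change 0.36, SE 0.17, adjusted p = 0.785), Slc24a3 (log2 fold change 0.15, SE 0.07, adjusted p = 0.786) and Kcnq3 (log2 fold change 0.12, SE 0.06, adjusted p = 0.786).

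For 45 of the 51 genes the 95% interval of the genotype difference lay within 1.5-fold in either direction, beside 576 of the 757 endogenous genes. The median log2 fold change was 0.00, beside 0.03 for all endogenous genes. The intervals were narrow for abundant genes, such as Atp5b (-0.12 to 0.09) and Atp6v1d (-0.15 to 0.07). They were wide for genes of low count, such as Abcc3 (-0.48 to 0.59), Abcc8 (-0.34 to 0.57) and Slc9b2 (-0.29 to 0.64). Without a CD73ko sham group, a genotype difference before surgery could not be separated from one after it.

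**Figure D5:**
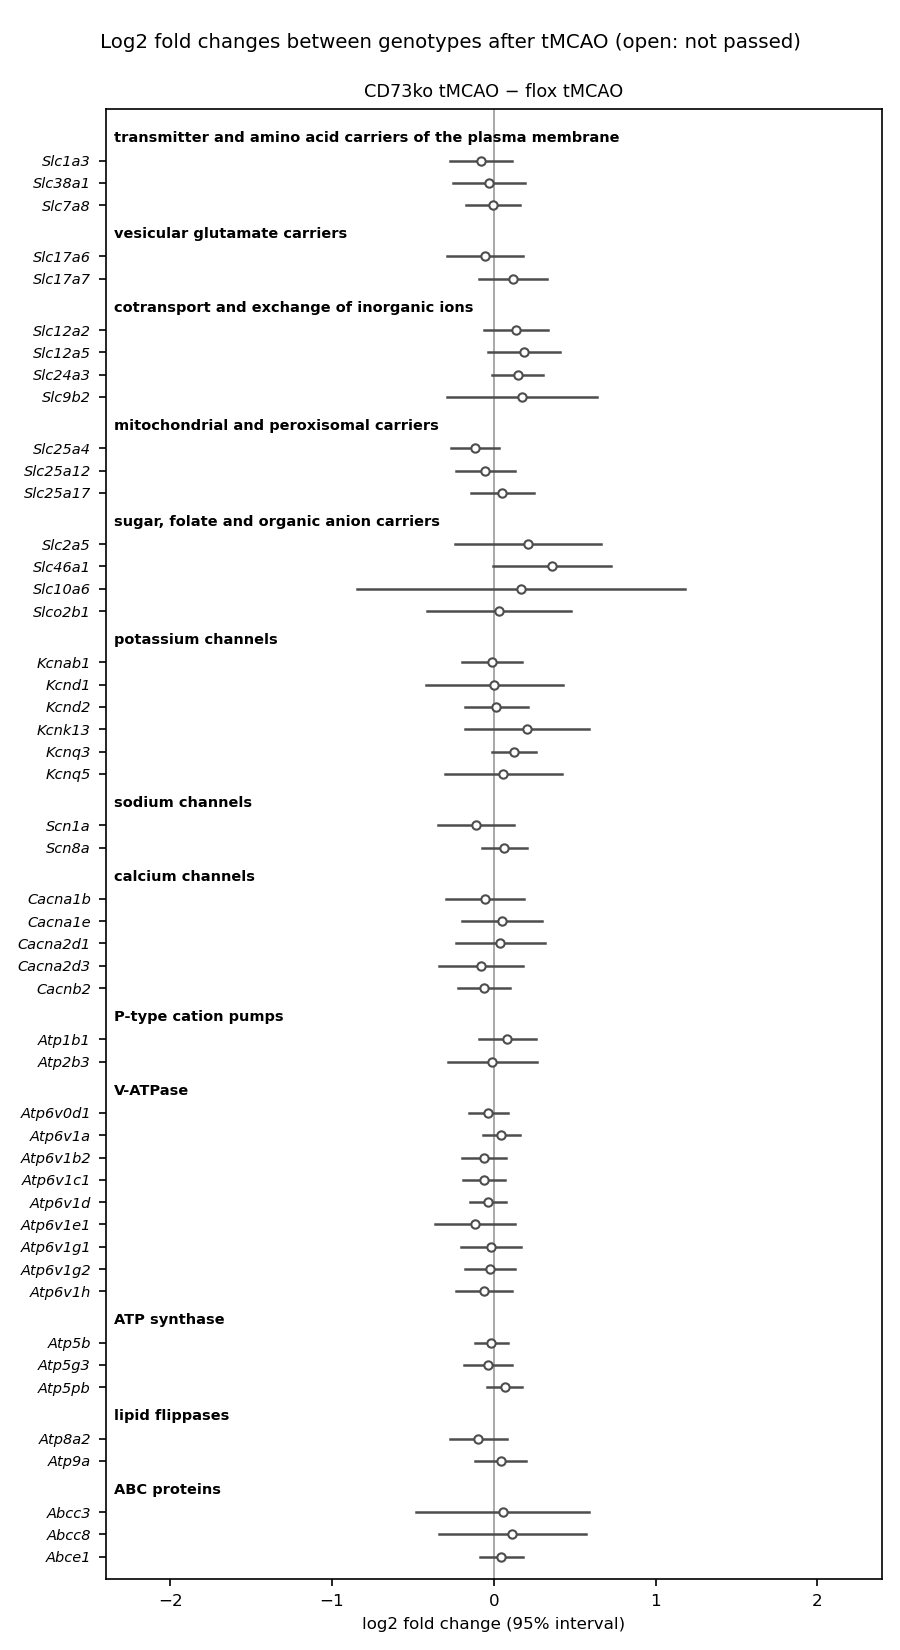
Log2 fold change of each of 48 of the 51 genes with its 95% interval in CD73ko tMCAO mice against flox tMCAO mice, grouped by role (n = 4 mice per group). All points are open, as none passed an adjusted p of 0.05, and the largest estimate, for Slc46a1, is 0.36.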

How the data were processed

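RNA from whole brains of 12 mice was counted with the nCounter panel after TRIzol extraction, per the labels' protocols. The deposited values are raw counts, given as whole numbers per mouse for 770 genes, 8 negative probes and 6 positive probes, and the counting software was not given in the sources used here. The 13 housekeeping genes and the control probes stayed out of the library totals used for scaling and out of the tests. The authors' 2 normalised tables were left aside, because the 11 sample names in each match no mouse label. Probes can bind transcripts of close paralogues, which the counts do not separate.

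Groups came from the group characteristic of the labels, 4 mice each. Counts of the 757 endogenous genes were fitted with edgeR's quasi-likelihood test under TMM scaling (R 4.3.3, edgeR 4.0.16), with 1 coefficient per group over all 12 mice, and p-values were adjusted by Benjamini-Hochberg over 757 genes within each of 3 comparisons at 0.05. Adjusted p-values given for single genes come from this test unless another tool is named. Standard errors were derived from the log2 fold change and its F statistic, with 14.4 degrees of freedom for 95% intervals. A normalised count is the count at the average effective library size of the 12 mice. A bound ("at least") sets the sham level to the higher of the count and the background limit of its library. The smallest difference between 2 mice of a group was 1.73 times what counting noise alone gives per degree of freedom (chi-square), so no 2 libraries were merged. Alternatives were median, housekeeping and DESeq2 scaling, DESeq2 1.42.0, limma 3.58.1 on log2(scaled count + 1) or + 10, a background filter, the 2 groups alone, a replicate block and single mice left out. The test was checked on simulated data.

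The 51 genes, their role groups and the marker and pathway lists were chosen with earlier results of these data known. Some genes of the set and of the lists are not reported here by name, and the counts over the 51 genes include them. Values of every mouse are given for the named genes that passed in a comparison and for the gene of smallest p in each role group without one; Cacna2d1 was added after its values were seen. Symbols of all 51 genes matched RefSeq (GRCm38.p6), from which the promoter sequences come; its table was used here without any other sequence source.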

Additional observations from a re-analysis of the deposited data

Results flagged for a closer look

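Among 144 groups of 4 mice tested over 48 genes, 6 (4.17%) held a mouse whose gap to its nearest neighbour exceeded Dixon's critical value at the 95% level, where chance gives about 1 in 20. Kcnab1 was high in CD73ko tMCAO replicate 2, at 777 normalised counts, against 715 to 723 in the other 3 mice. Slc12a5 was low in flox tMCAO replicate 3, at 577 normalised counts, against 781 to 803 in the other flox tMCAO mice. In the same mouse Atp6v1c1 was high, at 2316 normalised counts, against 2031 to 2073. Flox sham replicate 4, the library with the lowest total, was low for Cacna2d1, at 294 normalised counts, against 514 to 531, and for Atp9a, at 1288 normalised counts, against 1564 to 1614. Abce1 was low in flox sham replicate 3, at 419 normalised counts, against 463 to 469.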

How the results depend on the processing

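Among the 51 genes, 3 were higher and 2 lower in CD73ko tMCAO mice, and 2 were higher and 4 lower in flox tMCAO mice. Median scaling gave 1 and 6 in CD73ko tMCAO mice (13.7% and 15.6% of all genes) and 2 and 7 in flox tMCAO mice (12.8% and 13.9% of all genes). Housekeeping scaling gave 1 and 6 (13.3% and 15.5% of all genes), and 1 and 7 (11.8% and 13.1% of all genes). In CD73ko tMCAO mice the lower genes numbered 4 with DESeq2, beside 12.2% of all genes. Limma gave 1 at a pseudocount of 1 and 1 at 10, beside 6.61% of all genes each time. With only the 2 groups compared fitted there were 0, beside 4.89% of all genes. With both libraries that stand apart left out, a setting added after the data were seen, 9 were lower in CD73ko tMCAO mice and 8 in flox tMCAO mice. Leaving out 1 mouse at a time gave 1 to 3 higher and 0 to 8 lower in CD73ko tMCAO mice, and 1 to 3 higher and 2 to 9 lower in flox tMCAO mice. Over all endogenous genes, 122 were higher and 50 lower in CD73ko tMCAO mice, with 118 lower under median scaling, 117 under housekeeping scaling, 76 with DESeq2's size factors, 92 with DESeq2 and 106 without both libraries. In flox tMCAO mice 107 were higher and 60 lower, with 105 lower under median and 99 under housekeeping scaling. Leaving out 1 mouse gave 95 to 130 higher and 15 to 99 lower genes in CD73ko tMCAO mice, and 85 to 120 and 40 to 86 in flox tMCAO mice. Between the genotypes the count was 0 in both directions under every alternative run. Median and housekeeping scaling shifted all genes by a median log2 fold change of -0.068 and -0.092 in CD73ko tMCAO mice. In flox tMCAO mice the shifts were -0.043 and -0.072. Lower calls gained under these scalings therefore come with a downward shift of the whole panel. The cause of that shift and of the other changes in count was not tested.

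The replicate numbers did not pair the mice: deviations of same-numbered mice correlated between -0.248 and 0.169. With the replicate number as a block, 3 genes were higher and 0 lower in CD73ko tMCAO mice, and 2 and 3 in flox tMCAO mice, beside 14.7% and 4.62%, and 13.1% and 6.08%, of all genes. Kcnq3 in CD73ko tMCAO mice lost its call under the block (adjusted p = 0.0768). Of 306 single-gene repeats over 17 results, 272 kept their direction and side of the threshold, 28 lost the call, 5 gained one and 1 changed sign. The sign change was Slc1a3 in flox tMCAO mice, which was never called, at -0.0158 without both libraries. Sham means under 50 normalised counts limit the precision for Abcc3, Abcc8, Kcnd1, Kcnq5, Slc9b2, Slc46a1, Slco2b1 and Slc10a6. Data were simulated with 4 mice a group for flox tMCAO against flox sham over 757 genes. The test recovered 49% of genes changed by 0.3 on the log2 scale and 89% of those changed by 1, and called 1.08% of unchanged genes. Genes were drawn independently there, with rises and falls equally likely, and no library deviated across genes as flox sham replicate 4 does. These rates can therefore differ in the measured data.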
